A study of Mus musculus with 18 samples.

Results

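Complex I transcripts were followed through 44 genes whose symbols begin with Nduf, out of 18193 genes measured in dopamine neurons of mice given the toxin MPTP. The genes were chosen by symbol alone, as Ndufa, Ndufab, Ndufb, Ndufc, Ndufs, Ndufv or Ndufaf followed by a number, among probe sets that the platform annotation gives to 1 gene. They were read by 88 of 34945 such probe sets, 22 genes by 1 probe set and 22 by several. The neurons were laser captured from the substantia nigra (SN) and from the neighbouring ventral tegmental area (VTA) of adult C57Bl/6 mice carrying an hTH-GFP transgene, a fluorescent reporter that by its name runs on human tyrosine hydroxylase sequences. All mice, the controls included, carried this transgene and were kept 1 to a cage for 9 weeks. In each region, 3 arrays came from mice given 4 mg/kg MPTP for 2 days, 3 from mice given it for 10 days, and 3 from controls injected with saline for 10 days, which the sample descriptions call untreated. Mice were killed 7 days after the last injection. The sources used here do not give the sex or number of mice behind an array, and the labels call the arrays biological replicates without tying SN and VTA arrays to the same mouse. The p-values therefore measure the spread between these arrays.

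Complex I (NADH:ubiquinone oxidoreductase) takes electrons from NADH, passes them to ubiquinone and pumps protons across the inner mitochondrial membrane. A matrix arm holds the redox chain, in an N module where NADH is oxidised and a Q module where ubiquinone is reduced, and a membrane arm holds the pumps. Its core subunits are shared with bacteria, most of its accessory subunits were added in the eukaryotic lineage, and a set of assembly factors builds the enzyme without remaining in it. MPTP is converted to MPP+, which the dopamine transporter carries into dopamine neurons and which inhibits complex I at the ubiquinone site, so the enzyme is a direct target of the toxin.

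Among the 44 genes were 3 core subunits of the N module (Ndufv1, Ndufv2 and Ndufs1) and 3 of the Q module (Ndufs3, Ndufs7 and Ndufs8). A further 8 are accessory subunits of the matrix arm, 19 are accessory subunits of the membrane arm, and Ndufab1 encodes the acyl carrier protein that sits in both arms. The assembly factors Ndufaf1 to Ndufaf8 made up 8 more. The symbol rule also took in Ndufa4, now assigned to complex IV, and its relative Ndufa4l2, so that 34 genes encode subunits proper. Ndufs6 and Ndufa11 are not analysed here, and 10 probe sets that the annotation gives to an Nduf gene together with another gene or a near copy were not used.

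The deposited values are log2 signals centred on each probe set's own median over the 18 arrays. They show how an array differs from the other arrays, and they hold no level and no detection call, so neither the amount of a transcript nor the presence of a marker can be read from them. The values of a gene's probe sets were averaged. In bulk samples of this kind, fewer cells of a type and less RNA per cell cannot be told apart. The arrays of widest spread over all probe sets were the first SN saline array (median absolute deviation 0.235) and the first VTA array after 2 days of MPTP (0.269), against 0.123 to 0.204 in the others. Without both arrays the median difference of the complex I genes was -0.12 in SN at 2 days, -0.07 in SN at 10 days and 0.03 in VTA at 2 days, and for VTA minus SN -0.11 in saline and 0.05 at 2 days. With all arrays, as described later, the same medians were -0.09, -0.02, -0.01, -0.07 and 0.03. Differences of single genes were sensitive to single arrays: of 99 such results, leaving out 1 array moved 82 by over 1.5 times, and in 33 of these it turned the sign. None of these single-gene differences passed the adjusted test.

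No complex I gene passed the test in any of the 10 comparisons, at a Benjamini-Hochberg adjusted p of 0.05 with limma over all genes. The background was close to empty as well. The adjusted test called 0% of all genes in SN after 2 days, 0.0055% in SN after 10 days, 0.011% in VTA after 2 days and 0.011% in VTA after 10 days. It called 0% in VTA against SN in saline, 0% after 2 days, 0% after 10 days and 0% on the mean of the 3 treatments. Where the 2 regions' responses to MPTP were set against each other it called 0% at 2 days and 0% at 10 days. At an unadjusted p under 0.05, 0 of the 44 genes were called in SN after 2 days, where 6.65% of all genes were, and 0 after 10 days against 5.57%. With the replicate number as a block, the SN counts were 2 and 1. The share of all genes with the block was not counted at this threshold, so these counts have no background beside them. In VTA the count was again 0 at 2 days against 8.06% of all genes, and 0 at 10 days against 5.41%.

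The precision of the null can be stated. In each of the 7 comparisons of 1 group with another, 43 of the 44 genes had a 95% interval that lay inside a 2-fold change in either direction, and Ndufb4 was the exception each time. Ndufb4 was read by 1 probe set, because others that it shares with near copies were left out. The share of all genes inside this bound is not given here. Inside a 1.41-fold change in either direction lay 25 genes in SN after 2 days, 24 in SN after 10 days, 25 in VTA after 2 days and 26 in VTA after 10 days. The same bound held 37.4%, 38.6%, 37.5% and 38.3% of all genes. The median standard error (SE) of a complex I gene in these comparisons was 0.163 on the log2 scale, against 0.191 over all genes. Changes smaller than these intervals were not detectable with 3 arrays a group.

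In the SN, the complex I genes lay slightly below saline after 2 days of MPTP and close to saline after 10 days. Their median difference was -0.09 on the log2 scale at 2 days, a change of -6.13%, with 30 of 44 genes lower, while the median of all genes was -0.03 with 55.3% lower. At 10 days it was -0.02 with 25 lower, against -0.02 and 53.4% over all genes. In the VTA it was -0.01 at 2 days with 24 lower, and -0.01 at 10 days with 23 lower. Over all genes the VTA medians were -0.01 and -0.00, with 51.6% and 50.9% lower. The median of the 44 genes in each array showed the same narrow range. It was -0.028, 0.056 and 0.1 in SN saline, 0.011, -0.033 and -0.053 in SN after 2 days, and 0.055, -0.009 and 0.038 in SN after 10 days. In the VTA it was -0.047, -0.115 and 0.056 in saline, -0.053, 0.013 and 0.004 after 2 days, and -0.03, -0.086 and 0.006 after 10 days. The groups overlapped in both regions. The signs near 0 rest on single arrays: without the third saline array the median was 0.05 in SN at 10 days, and in the VTA 0.06 at 2 days and 0.05 at 10 days.

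**Figure D1:**
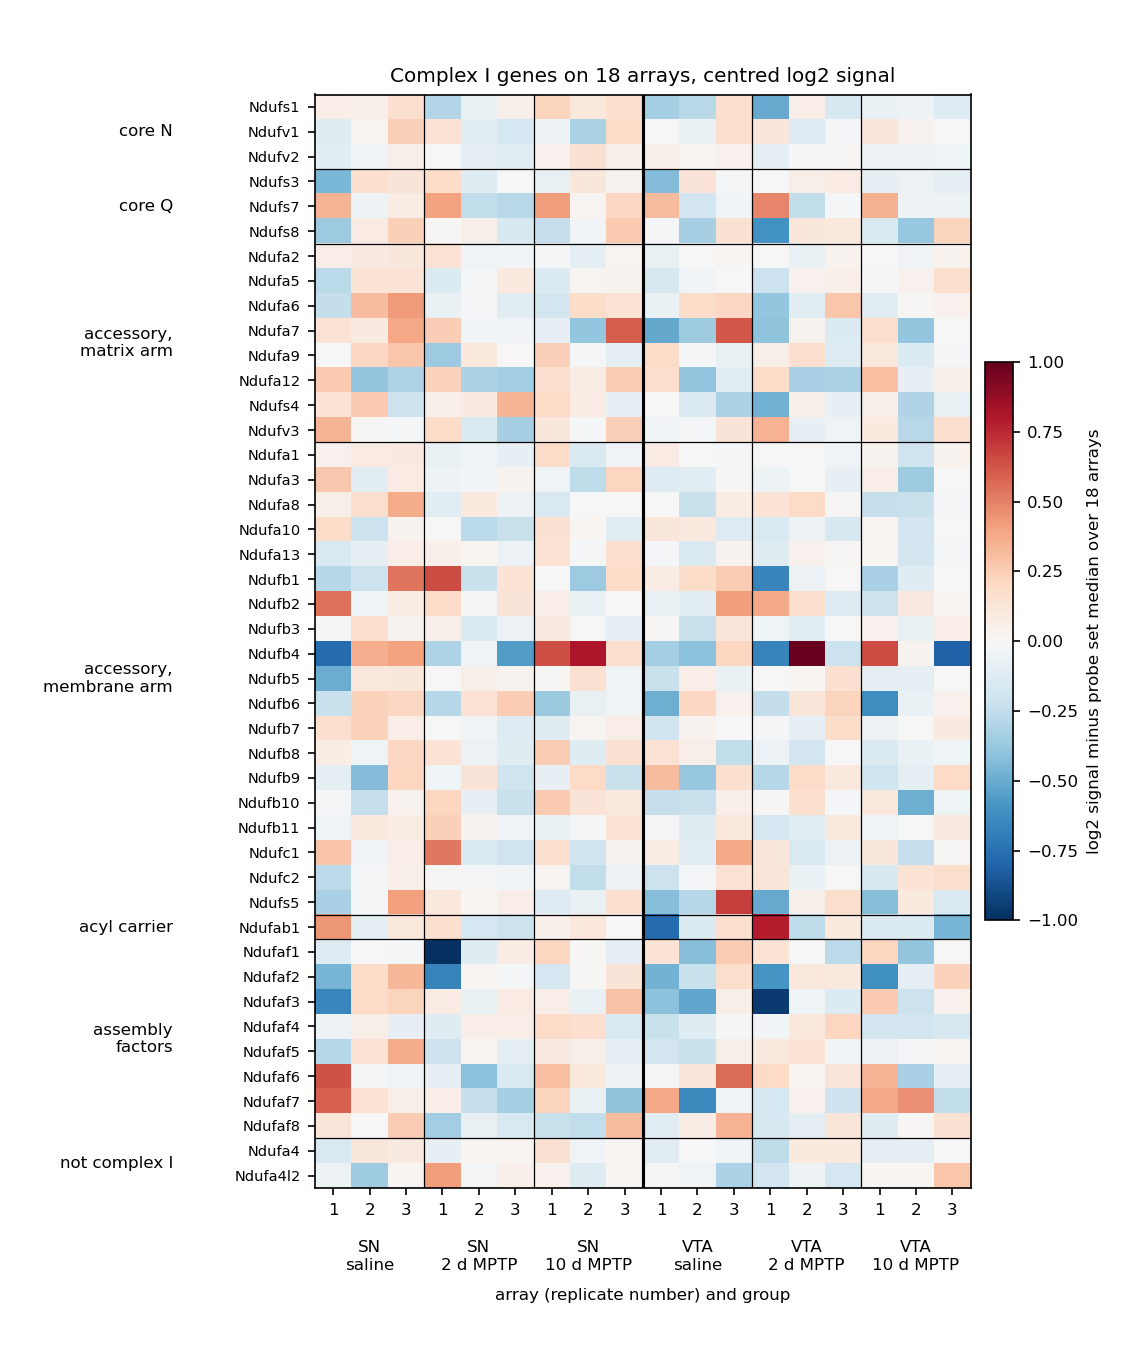
Heat map of the centred log2 value of each of the 44 genes (rows, ordered by role) in each of the 18 arrays (columns, by region and treatment), with colours that saturate at 1 unit either way. Most cells are pale, and Ndufb4 and Ndufab1 have the widest ranges, with high and low arrays inside the same group.

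The nuclear-encoded core subunits lay close to saline in both regions. Ndufv1 encodes the flavoprotein that binds NADH, and its difference from saline was -0.09 in SN at 2 days, -0.11 in SN at 10 days, -0.04 in VTA at 2 days and 0.02 in VTA at 10 days. Ndufv2, its iron-sulfur partner, gave -0.03, 0.11, -0.07 and -0.09 in the same order. Ndufs1, the largest core subunit and a carrier of iron-sulfur clusters, gave -0.20, 0.07, -0.05 and 0.06. The 95% interval of each of these differences held 0. In the Q module, Ndufs3 gave 0.08, 0.08, 0.15 and 0.03, and the SN values were -0.12 and -0.12 without the first SN saline array. Ndufs7, which holds the cluster nearest to ubiquinone, gave -0.16, 0.10, 0.04 and 0.05, and Ndufs8, which carries a pair of clusters on the way to it, gave -0.02, 0.01, -0.06 and -0.04. Without the 2 arrays of widest spread, Ndufs7 gave -0.05 and 0.21 in SN and -0.17 in VTA at 2 days. Ndufs8 then gave -0.19 and -0.16 in SN and 0.18 in VTA at 2 days. The core median was -0.06 in SN at 2 days with 5 of 6 genes lower, and 0.07 at 10 days with 1 of 6 lower. Without the 2 arrays of widest spread it was -0.15 with 6 of 6 lower at 2 days, and -0.03 with 3 of 6 lower at 10 days.

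Ndufs1 was the core subunit with the lowest values in SN after 2 days. It read 0.069, 0.053 and 0.163 in the SN saline arrays, -0.293, -0.076 and 0.052 after 2 days, and 0.220, 0.108 and 0.159 after 10 days. The 2 day arrays all lay below the saline arrays, the nearest pair almost touching, and the 10 day arrays overlapped saline. The difference at 2 days was -0.20 ± 0.16 (SE, n = 3 against 3, limma adjusted p = 0.861).

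By its gene mean, Ndufv2 was the steadiest core subunit, with a standard deviation (SD) of 0.069 over the 18 arrays. Its 3 probe sets had larger SDs, of 0.132, 0.094 and 0.104, and the median correlation between them was -0.19. In the VTA the gene mean read 0.047, 0.028 and 0.042 in saline, -0.087, -0.008 and 0.009 after 2 days, and -0.058, -0.049 and -0.042 after 10 days. On this mean, both treated groups lay wholly below saline in the VTA. The probe sets disagreed at 2 days: 1 rose from -0.042 in saline to 0.067, and the others fell, from 0.067 to -0.075 and from 0.092 to -0.078. The differences of the gene mean were small, -0.07 ± 0.10 (limma adjusted p = 0.915) and -0.09 ± 0.10 (adjusted p = 0.982). They share the saline arrays.

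The assembly factors had the lowest median of the role classes in SN after 2 days. It was -0.28, with 6 of the 8 factors lower (-0.29 and 7 of 8 without the first saline array), and -0.04 in SN after 10 days, where 5 of 8 were lower (-0.14 without that array). Per array, the median of the factors in SN after 2 days was -0.164, -0.075 and -0.051. The first of these arrays was the lowest, and the class median without it is not given here. In the VTA the medians were -0.02 at both durations, and 0.10 at 2 days without the first treated array. Ndufaf6, which belongs to the early Q module assembly steps, read 0.635, -0.022 and -0.041 in SN saline and -0.084, -0.414 and -0.152 after 2 days. The groups did not overlap, but the first saline array was far above the other saline arrays. The difference was -0.41 ± 0.21 (limma adjusted p = 0.76), and it was -0.18 without that array.

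Ndufaf8, a small factor that works with Ndufaf5, read 0.119, 0.004 and 0.250 in SN saline and -0.349, -0.073 and -0.150 after 2 days. All treated arrays lay below all saline arrays, and both of its probe sets gave the same sign. The difference was -0.32 ± 0.17 (limma adjusted p = 0.774). Ndufaf7, a mitochondrial methyltransferase, gave -0.43 ± 0.25 (adjusted p = 0.801), with arrays that overlapped, and -0.27 without the first saline array. With all arrays it was the lowest of the 44 genes, and without that array Ndufb4 was, at -0.68. Ndufaf1, which takes part in building the membrane arm, gave -0.32, Ndufaf2 -0.24 and Ndufaf5 -0.17, while Ndufaf4 gave 0.03 and Ndufaf3 0.11. The values of Ndufaf1 and Ndufaf2 rest on the first treated array. Ndufaf1 read -1.054, -0.123 and 0.076 after 2 days, and Ndufaf2 -0.666, 0.019 and -0.014. Among 12 other genes for complex I assembly, 10 were lower in SN after 2 days, with a median of -0.14, and none passed the test.

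Among accessory subunits, Ndufb7 was the gene whose SN arrays separated from saline at both durations. Its product, a membrane arm subunit on the intermembrane space side, read 0.169, 0.233 and 0.069 in SN saline, -0.004, -0.033 and -0.130 after 2 days, and -0.125, 0.025 and 0.064 after 10 days. All 6 treated arrays lay below the lowest saline array, the nearest only just. The differences were -0.21 ± 0.12 (limma adjusted p = 0.785) and -0.17 ± 0.12 (adjusted p = 0.955). They share the saline arrays. In the VTA the gene gave 0.08 and 0.07. The SN separation was seen in 1 of its probe sets, with means of 0.300 in saline, -0.099 after 2 days and -0.022 after 10 days. The other probe set had SN means of 0.014, -0.012 and -0.002, with arrays that overlapped.

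Ndufa1, a small membrane arm subunit encoded on the X chromosome, was the fifth gene with separated SN arrays at 2 days. It read 0.044, 0.082 and 0.093 in saline and -0.078, -0.045 and -0.080 after treatment. The groups were tight and the difference small, at -0.14 ± 0.11 (limma adjusted p = 0.862). In all, 5 of 44 genes (11.4%) had SN arrays at 2 days wholly below saline and 0 wholly above, where 8.56% of all genes lay below and 5.96% above. At 10 days, Ndufa2, Ndufa8 and Ndufb7 (6.82%) lay wholly below and Ndufb10 wholly above, against 6.27% and 5% of all genes. The shares of complex I genes were near those of all genes.

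Ndufa8, an accessory subunit of the membrane arm with cysteine motifs of the intermembrane space, read 0.057, 0.178 and 0.370 in SN saline and -0.149, 0.002 and -0.003 in SN after 10 days. The difference was -0.25 ± 0.13 (limma adjusted p = 0.91). Ndufb10, also a cysteine-rich membrane arm subunit, went the other way. It read -0.012, -0.232 and 0.033 in saline and 0.261, 0.128 and 0.101 after 10 days, a difference of 0.23 ± 0.16 (adjusted p = 0.951). These subunits of the same arm thus lay on opposite sides of saline by similar amounts, and neither passed.

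Ndufa4l2, which is not a complex I subunit, was the highest gene of the 44 in SN after 2 days. It read -0.054, -0.356 and 0.020 in saline and 0.420, -0.009 and 0.052 after 2 days, with an overlap. The difference was 0.28 ± 0.15 (limma adjusted p = 0.766), and 0.15 without the first treated array. In the VTA its arrays were 0.009, -0.039 and -0.320 in saline and 0.019, 0.019 and 0.275 after 10 days, which did not overlap, and the difference was 0.22 ± 0.15 (adjusted p = 0.935), or 0.12 without the third saline array.

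In the VTA, Ndufb1, a single-span subunit of the membrane arm, was the gene with both durations below saline beside Ndufv2. It read 0.077, 0.186 and 0.256 in saline, -0.662, -0.058 and 0.001 after 2 days, and -0.326, -0.125 and 0.000 after 10 days. The lowest was the 2 day array of widest spread. The differences were -0.41 ± 0.25 (limma adjusted p = 0.736) and -0.32 ± 0.25 (adjusted p = 0.959), and the first was -0.20 without that array. In SN the same gene gave 0.18 and -0.07. Ndufb1 and Ndufv2 were the 2 genes of 44 (4.55%) wholly below saline in VTA after 2 days, with 0 above, against 4.92% and 5.1% of all genes. The same pair lay below after 10 days with Ndufa4l2 above, against 4.53% and 4.77%.

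**Figure D2:**
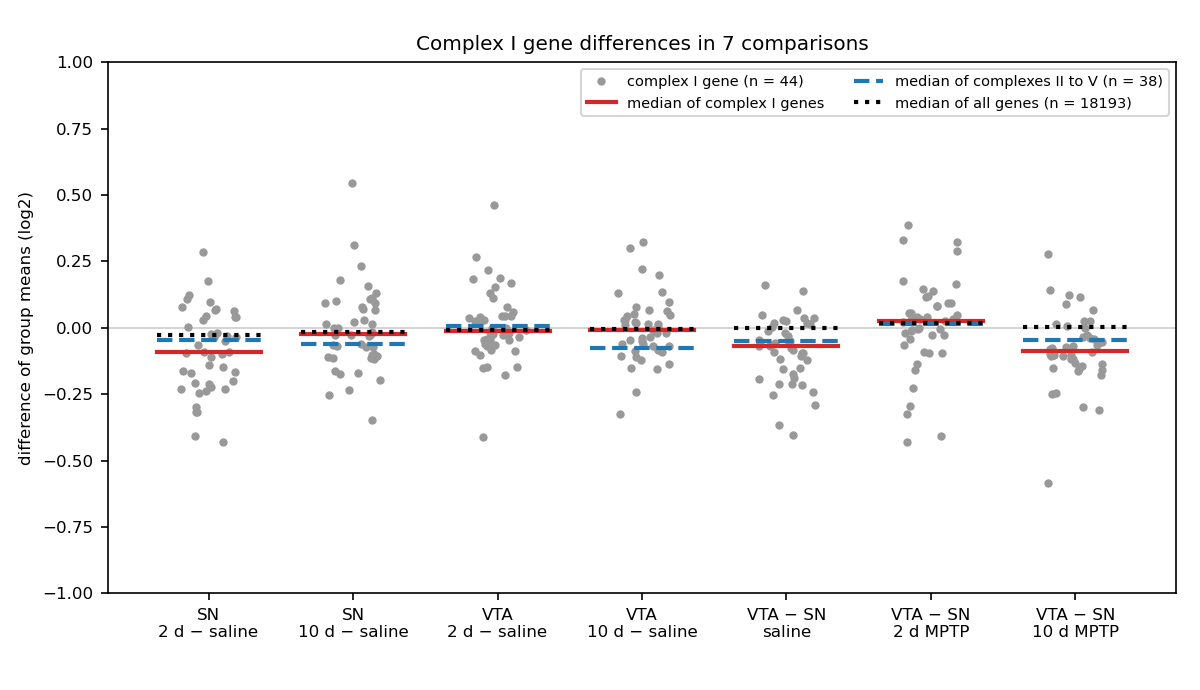
Difference of group means on the log2 scale (vertical axis) for each of the 44 genes (grey points, spread sideways for visibility) in 7 comparisons, with lines at the median of the complex I genes, of complexes II to V and of all genes. The complex I medians lie between -0.09 and 0.03, and single genes spread to either side of 0 in each comparison.

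The largest difference in the VTA at 2 days belonged to Ndufab1, and it differed between probe sets. The mean of its 5 probe sets read -0.770, -0.137 and 0.157 in VTA saline and 0.782, -0.252 and 0.101 after 2 days, so the first array of each group lay at opposite ends. The difference was 0.46 ± 0.25 (limma adjusted p = 0.685), and single probe sets gave -0.12 to 1.72. Without the first treated array, which is 1 of the 2 of widest spread, it was 0.17. The probe set with 1.72 had read -2.201 in the first saline array and 1.940 in the first treated array. Ndufaf4, an assembly factor that works with Ndufaf3, gave 0.22 ± 0.12 (adjusted p = 0.703) from arrays of -0.222, -0.125 and -0.008 in saline and -0.029, 0.109 and 0.213 after 2 days. These arrays overlapped.

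Ndufa12, an accessory subunit of the matrix arm, showed the same kind of split between probe sets in SN at 10 days. Its mean was 0.31 ± 0.21 above saline (limma adjusted p = 0.949), while its 4 probe sets gave -0.18 to 0.94. The probe set with 0.94 has the suffix _x_at, a mark of probes that may also match other sequences. It read 0.179, -1.030 and -0.725 in SN saline, 0.171, -0.926 and -0.571 after 2 days, and 0.568, 0.207 and 0.481 after 10 days. In the VTA it read 0.315, -0.930 and -0.740 in saline, -0.023, -0.754 and -0.795 after 2 days, and 0.717, 0.023 and 0.265 after 10 days. In each saline and 2 day group the first array was high and the others low, and all 6 of the 10 day arrays were high. Another _x_at probe set of the gene moved the same way, with SN means of -0.149 in saline, -0.052 after 2 days and 0.256 after 10 days. The plain probe set of the same gene did not follow, with -0.18 in SN at 10 days. In that comparison 3 of the 4 probe sets of Ndufa12 thus had the sign of the mean.

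**Figure D3:**
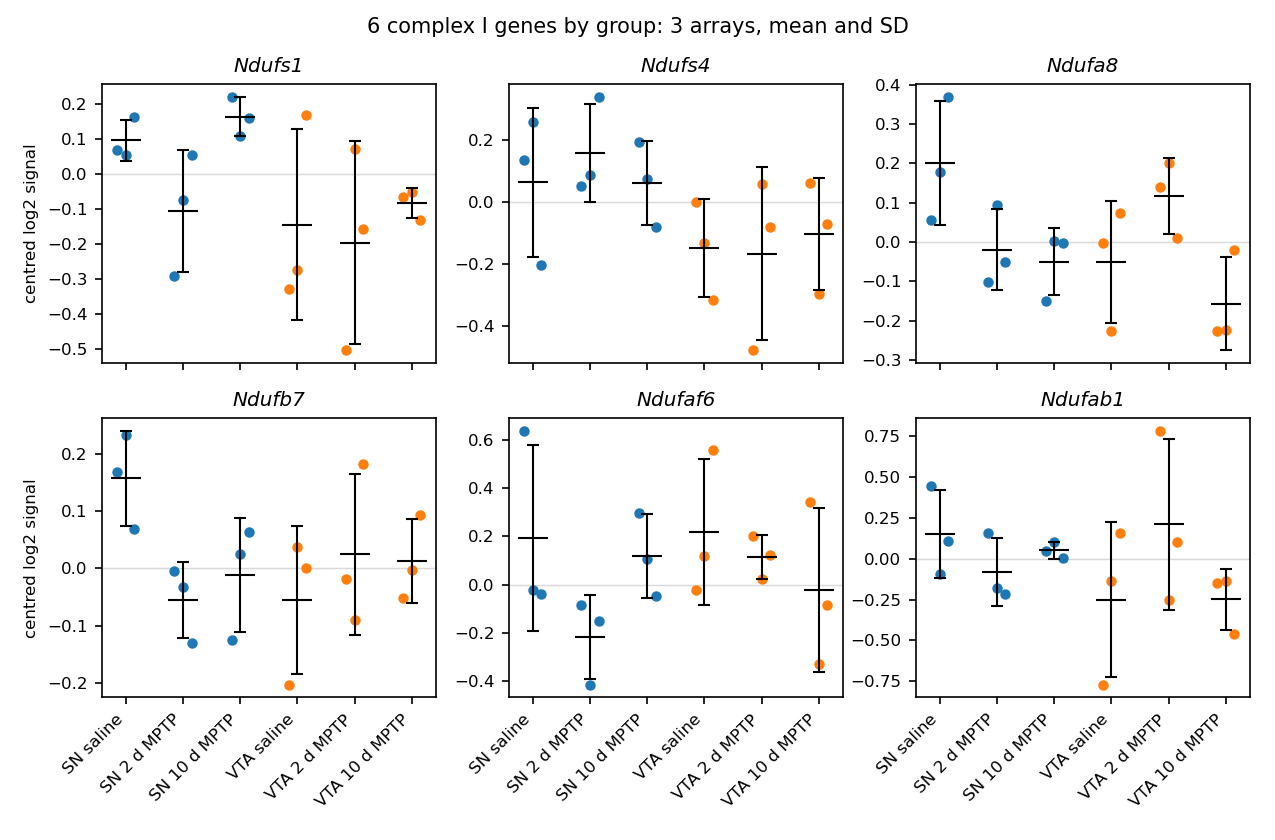
Centred log2 values of Ndufs1, Ndufs4, Ndufa8, Ndufb7, Ndufaf6 and Ndufab1 by group, with 3 arrays a group as points (SN blue, VTA orange) and bars for the mean and SD, each panel on its own axis. The SN saline arrays of Ndufb7 lie above both treated SN groups, and in Ndufab1 and Ndufaf6 single arrays stand away from the others of their group.

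Between the regions, most complex I genes had lower means in the VTA in saline and after 10 days of MPTP, and none passed the test. In saline the median of VTA minus SN was -0.07 with 32 of 44 lower, after 2 days 0.03 with 20 lower, and after 10 days -0.09 with 34 lower. The 10 day majority rested on 1 array: without the second VTA array of that group the median was -0.0038 with 22 lower and 22 higher. Over all genes the medians were -0.00, 0.02 and 0.00, with 50%, 46.3% and 48.9% lower. Averaged over the 3 treatments, 37 of the 44 genes were lower in the VTA, at a median of -0.04 or -2.94%, while 47.4% of all genes were lower with a median of 0.01. With each array left out in turn, 31 to 37 of the 44 were lower on this mean. The genes higher in the VTA were Ndufa5, Ndufaf1, Ndufaf6, Ndufaf8, Ndufb9, Ndufc2 and Ndufv1. Genes of 1 pathway are not independent replicates, so the count carries no test.

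The order of the regions was the same at every treatment in a minority of the genes. The VTA mean was below the SN mean at all 3 treatments in 12 genes (27.3%), where 13.9% of all genes showed that order, and above it in 2 genes (4.55%), Ndufb9 and Ndufc2, against 16.2% of all genes. The 12 genes were Ndufs1 and Ndufs8 of the core, the matrix arm genes Ndufs4, Ndufa6 and Ndufa7, the membrane arm genes Ndufa3, Ndufb6, Ndufb8, Ndufb11 and Ndufs5, the assembly factor Ndufaf3, and Ndufa4. Without the 2 arrays of widest spread, the 2 day difference lay above 0 for several of them. It was 0.06 for Ndufs1, 0.15 for Ndufs8, 0.15 for Ndufa6, 0.13 for Ndufb6, 0.04 for Ndufs5 and 0.11 for Ndufa4. For Ndufc2 it was then -0.02. The counts therefore rest in part on these arrays, and the share of all genes without them is not given here. By role, 17 of 19 membrane arm genes, 7 of 8 matrix arm genes and 5 of 6 core genes were lower in the VTA on the mean of the treatments, but 5 of 8 assembly factors.

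Ndufs4 had the largest regional difference. It encodes an accessory subunit of the N module whose loss gives a Leigh-like disease in mice. It read 0.136, 0.260 and -0.205 in SN saline, 0.051, 0.086 and 0.341 in SN after 2 days, and 0.193, 0.073 and -0.080 in SN after 10 days. In the VTA it read -0.000, -0.133 and -0.316, then -0.479, 0.060 and -0.081, then 0.062, -0.298 and -0.072. The regions overlapped, with most VTA arrays below 0 and most SN arrays above. The mean difference was -0.23 ± 0.10, with a 95% interval from -0.44 to -0.03, an unadjusted p of 0.0277 and a limma adjusted p of 0.972. Of its 4 probe sets, 3 gave this sign. Without the first VTA array of 2 days, the lowest of all, the difference was -0.18.

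Ndufs1 was next by unadjusted p, though not by size of difference, at -0.19 ± 0.09 (unadjusted p = 0.0499, limma adjusted p = 0.972). The VTA arrays read -0.329, -0.275 and 0.168 in saline, -0.504, 0.070 and -0.157 after 2 days, and -0.066, -0.052 and -0.132 after 10 days. The third saline array stood high among them, and the first array of 2 days low, without which the difference was -0.14. Its regional difference was -0.24 in saline, -0.09 after 2 days and -0.25 after 10 days. These 2 genes were 4.55% of the 44 at an unadjusted p under 0.05, where 4.2% of all genes were called.

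At single treatments, 0 of 44 genes reached an unadjusted p under 0.05 in saline, after 2 days or after 10 days, against 4.36%, 2.79% and 2.99% of all genes. In saline, Ndufa2 and Ndufb7 lay wholly lower in the VTA and 0 genes higher, against 3.84% and 3.46% of all genes. For Ndufb7 this held in 1 of its probe sets, and the other had means of 0.014 in SN and 0.023 in VTA. After 2 days, Ndufa4l2 lay wholly lower and Ndufa1 and Ndufaf6 wholly higher, against 3.55% and 4.99%. After 10 days, Ndufs1, Ndufv2, Ndufab1 and Ndufaf4 (9.09%) lay wholly lower and 0 higher, against 4.12% and 4.88%. Ndufaf4 had the smallest p of these, from arrays of 0.191, 0.170 and -0.150 in SN and -0.186, -0.183 and -0.164 in VTA, with a difference of -0.25 ± 0.12 (limma adjusted p = 1). On this gene mean the SN arrays were spread and the VTA arrays tight. Its 2 probe sets, with a correlation of -0.1, did not show this. In VTA 1 read -0.059, -0.016 and -0.351, and the other -0.314, -0.35 and 0.023. In SN they read 0.221, 0.154 and -0.083, and 0.162, 0.187 and -0.217, so the regions overlapped in each.

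The responses of the 2 regions to MPTP were also compared directly, as the VTA difference from saline minus the SN difference. At 2 days the median over the 44 genes was 0.07, with 31 genes higher in this difference, and the median of all genes was 0.02. At 10 days it was -0.00 with 22 genes on either side, against 0.01. At 2 days, 7 of 8 assembly factors were higher, with a median of 0.28. The first SN array after 2 days, low for Ndufaf1 and Ndufaf2 as given above, enters these values. Without the 2 arrays of widest spread, the 2 day median was 0.17 with 36 genes higher, and no gene passed the adjusted test.

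Ndufa8 gave the smallest p of this comparison. Its SN arrays were given above for saline, and after 2 days they read -0.103, 0.095 and -0.052. Its VTA arrays read -0.002, -0.226 and 0.073 in saline and 0.140, 0.202 and 0.011 after 2 days. It was lower than saline in SN, by -0.22, and higher than saline in VTA, by 0.17, with arrays that overlapped in both regions. The difference of the responses was 0.39 ± 0.18, with a 95% interval from 0.01 to 0.77, an unadjusted p of 0.0438 and a limma adjusted p of 1. It was the 1 gene of 44 (2.27%) at an unadjusted p under 0.05 at 2 days, where 3.3% of all genes were. At 10 days the count was 0 against 3.17%, and the widest of the differences was that of Ndufaf7, 0.65 ± 0.36 (adjusted p = 1).

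**Figure D4:**
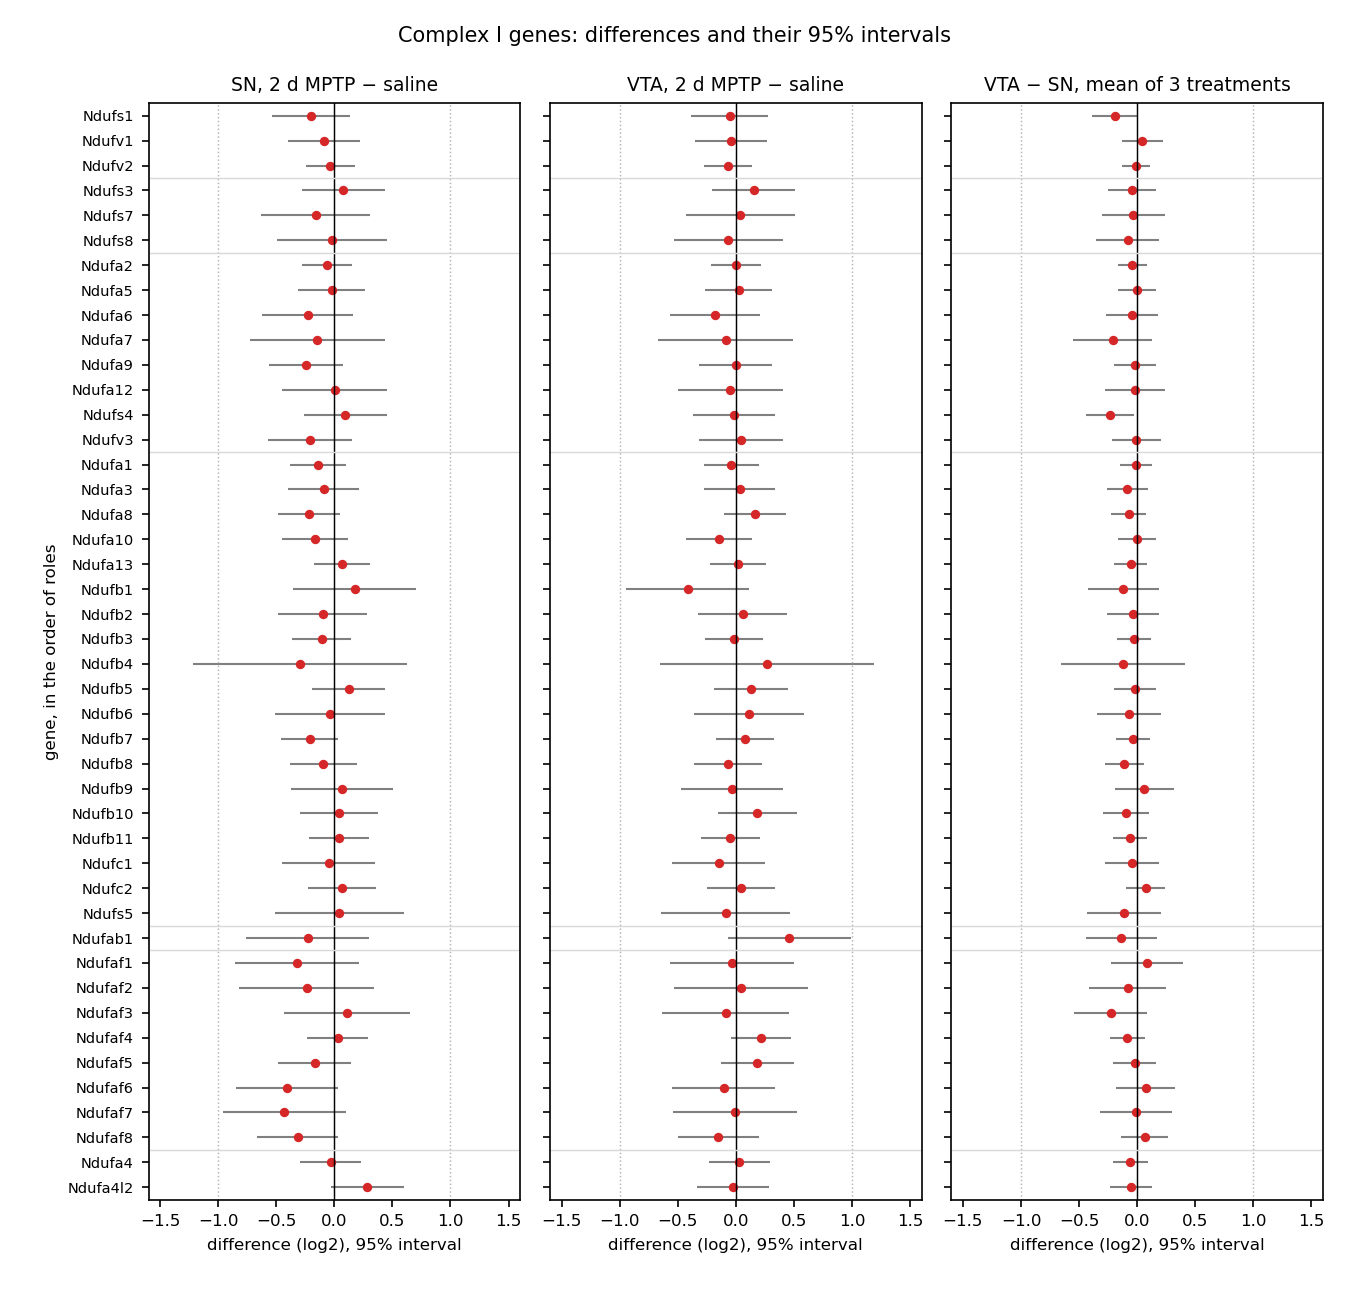
Difference on the log2 scale with its 95% interval for each of the 44 genes in the order of roles, for SN at 2 days and VTA at 2 days of MPTP against saline and for VTA against SN on the mean of the treatments, with dotted lines at 1 unit (2-fold) either way. In the comparisons with saline 43 of 44 intervals stay inside the dotted lines and Ndufb4 crosses, and in the third panel Ndufs4 and Ndufs1 have intervals below 0.

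The SD of a complex I gene over the 18 arrays had a median of 0.189 against 0.24 over all genes, and 30 of the 44 lay below that median. It was smallest for Ndufa2 of the matrix arm (0.064) and Ndufv2 (0.069), and the membrane arm held both Ndufa1 at 0.09 and Ndufb4 at 0.575. Ndufb4 read -0.770, 0.367 and 0.399 in SN saline and -0.667, 1.149 and -0.218 in VTA after 2 days, so arrays of 1 group differed by more than its group means did. Among assembly factors the SD ran from 0.14 (Ndufaf4) to 0.339 (Ndufaf3), in the core from 0.069 to 0.254 (Ndufs7), and in the matrix arm up to 0.333 (Ndufa7). The probe sets of Ndufaf4 had larger SDs than their mean, of 0.199 and 0.217. Ndufa4 had 0.106 and Ndufa4l2 0.183.

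Some of this variation followed the array numbers in the titles. Ndufs7 was highest in array 1 in all 6 groups, at 0.336, 0.401 and 0.415 in SN and 0.317, 0.492 and 0.358 in VTA, where the other arrays ran from -0.280 to 0.210. Ndufa5, a matrix arm subunit, was lowest in array 1 and highest in array 3 in all 6 groups. One number was highest in every group in 2 of the 44 genes (4.55%), Ndufa5 and Ndufs7, against 1.54% of all genes. One number was lowest in 3 of 44 (6.82%), Ndufa5, Ndufaf2 and Ndufb6, against 1.89%. The labels do not say what the numbers share.

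Across arrays the 44 genes were only loosely alike. As a description over the 18 arrays, which share their groups and their normalisation, the Pearson correlation of a member with the median of the other members had a median of 0.26 and ran from -0.12 to 0.63. It was highest for Ndufa13 and Ndufa7 (0.63) and Ndufs8 (0.61), and below 0 for Ndufa4l2 (-0.12), Ndufa12 (-0.1) and Ndufa10 (-0.04). It exceeded 0.5 in 9 members (20.5%) and in 2.92% of other genes, whose median was 0.03. The gene of lowest correlation, Ndufa4l2, is 1 of the 2 that are not complex I subunits, while Ndufa4, the other, had 0.47.

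The other nuclear-encoded respiratory chain genes, 38 genes of complexes II to V, stood beside complex I without a call at the adjusted threshold. Their median was -0.05 in SN after 2 days with 28 lower, -0.06 in SN after 10 days with 29 lower, 0.01 in VTA after 2 days with 17 lower, and -0.07 in VTA after 10 days with 29 lower. For VTA against SN it was -0.05 in saline with 28 lower and -0.03 on the mean of the treatments with 25 lower. The single mitochondrially encoded subunit that could be read, ND5, gave 0.10 and -0.02 in SN. The 10 regulators of mitochondrial genes on the list had medians of 0.08 and 0.09 in SN and 0.13 and 0.14 in VTA, at 2 and 10 days. Yy1, a factor with sites in many nuclear mitochondrial genes, had the smallest p of them in SN after 2 days, at 0.49 ± 0.18 (limma adjusted p = 0.653), and Ppargc1a, a coactivator of mitochondrial biogenesis, gave 0.28 (adjusted p = 0.731).

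Markers of the captured cells had larger differences than complex I genes. Of 21 dopamine neuron identity genes, such as Th, 21 were lower in SN at 2 days with a median of -0.99, 21 at 10 days with -0.63, 20 in VTA at 2 days with -0.55 and 17 in VTA at 10 days with -0.17. In saline, VTA minus SN was -0.41, with 17 lower. The list's median per array ran from 0.417 to 1.001 in SN saline, -0.549 to -0.113 after 2 days and -0.171 to 0.449 after 10 days. Over the VTA groups it ran from -0.777 to 0.714, -0.877 to 0.153 and -0.325 to 0.706. Of 15 astrocyte genes, 12 were higher in SN at 2 days (median 0.20) and 12 lower in VTA at 2 days (-0.16), while all 14 oligodendrocyte genes were lower in VTA at 2 days (-0.47). These lists were described and not tested as sets, and their part in the complex I values was not tested. For RNA quality, the 3′ to 5′ log2 difference of the Gapdh control probe sets was -0.23 ± 0.25 (SD, n = 3) in SN saline. It was -0.18 ± 0.21 after 2 days and 0.37 ± 0.54 after 10 days, from arrays of 0.298, 0.935 and -0.134. The Actb control probe sets did not show this rise, with 0.025 ± 0.176, 0.042 ± 0.251 and 0.0 ± 0.115 in the same order. The part of RNA quality was not tested either.

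The promoters were searched for sites of factors known to act on nuclear respiratory genes. Of the 44 genes, 39 had a promoter in the RefSeq table (GRCm38.p6), 41 promoters in all, each from 250 bases before the start to 50 after it. Searched on both strands, AGATGGC of YY1 occurred in 8 of the 41 (19.5%) against 6.4% of 32851 promoters, and CCGGAAG of ETS factors such as GABP in 6 (14.6%) against 8.86%. GCGCATGC of NRF1 occurred in 4 (9.76%) against 2.71%, and AAGGTCA of estrogen-related receptors in 3 (7.32%) against 4.72%. The letters of these motifs do not contain each other, and 19 genes held none. The promoters of Ndufs4, at chr13:114388045-114388344 on the minus strand, and Ndufa8, at chr2:36049289-36049588 on the minus strand, are shown because these genes had the smallest unadjusted p in the comparison of regions and of responses. Capitals mark AGATGGC in Ndufs4, at bases 287 to 293 of the window, and in Ndufa8 GCATGCGC, the NRF1 letters read on the other strand, at bases 243 to 250.
Ndufs4: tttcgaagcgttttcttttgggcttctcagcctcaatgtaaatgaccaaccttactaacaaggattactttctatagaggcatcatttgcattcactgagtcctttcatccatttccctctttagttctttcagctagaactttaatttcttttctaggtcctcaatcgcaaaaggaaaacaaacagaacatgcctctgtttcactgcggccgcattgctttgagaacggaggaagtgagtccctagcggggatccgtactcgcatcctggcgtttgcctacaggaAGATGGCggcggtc
Ndufa8: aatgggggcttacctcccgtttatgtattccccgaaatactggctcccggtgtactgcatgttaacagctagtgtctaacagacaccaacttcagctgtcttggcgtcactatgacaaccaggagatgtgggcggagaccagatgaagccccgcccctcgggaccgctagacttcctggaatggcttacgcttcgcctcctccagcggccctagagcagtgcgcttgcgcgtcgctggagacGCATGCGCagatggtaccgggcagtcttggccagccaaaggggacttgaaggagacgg
The match in Ndufs4 lies after the annotated start and the match in Ndufa8 just before it. A match is a description of these letters and does not show that a factor binds there.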

How the data were processed

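Laser-captured dopamine neurons were profiled on Affymetrix mouse arrays. RNA was amplified with the WT-Ovation Pico system, per the labels' protocols. The deposited log2 values are the authors' RMA output from GeneSpring GX 10.0, as the design text of the series states. A checked property is that every probe set's median over 18 arrays is 0 to within 5e-07. Values ran from -5.02 to 6.72, with 0 missing.

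Probe sets with 1 symbol were averaged per gene, and 932 with several symbols and 9211 with none were left out. Groups and replicate numbers came from sample titles. The fit used limma 3.58.1 (R 4.3.3) with 1 model of 6 group means (12 residual and 4.06 prior degrees of freedom), two-sided, with Benjamini-Hochberg adjustment over 18193 genes. Scripts were tested on simulated data. Figures used matplotlib 3.10.9.

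The members, role classes and marker lists were chosen with earlier results of these data known. Named are the core subunits, per comparison the members of smallest p in each direction, those of extreme spread or correlation within the members, those with separated arrays at both durations or in both regions, and those whose probe sets differ most. Of other lists, at most 2 genes each way are named, and not every eligible gene is printed. Alternatives covered probe set summaries, normalisation, array weights, left-out arrays, the replicate block, the members and the arrays fitted. Replicate numbers were checked as pairs by the correlation of deviations from group means. All 3 pairs exceeded 0.1 only for VTA against SN at 10 days (0.28 to 0.40). The differences, SEs and p-values given for that comparison come from the fit without a block, so they are unpaired. With the replicate number as a block over all groups, 0 members were called there, as without it.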

Additional observations from a re-analysis of the deposited data

How the results depend on the processing

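No complex I gene passed the adjusted test under any alternative that was run. A filter on low values was not run, because the values hold no level. Leaving out 1 array at a time, the members' median difference ran from -0.12 to -0.0542 in SN at 2 days, -0.0681 to 0.0452 in SN at 10 days, -0.0344 to 0.0578 in VTA at 2 days and -0.0452 to 0.047 in VTA at 10 days. For VTA minus SN it ran from -0.128 to -0.0342 in saline, -0.0032 to 0.0523 at 2 days, -0.114 to -0.0038 at 10 days and -0.0629 to -0.0325 on the mean of the treatments. The difference of responses ran from 0.0428 to 0.145 at 2 days and -0.0272 to 0.0507 at 10 days. At 2 days that difference was 0.167 with array weights and 0.173 without the 2 arrays of widest spread. The sign of the medians nearest to 0 turned with single arrays, and that of VTA at 2 days also with quantile normalisation (0.0118) and array weights (0.0412). The cause was not tested.

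With the replicate number as a block, the medians were unchanged, as the design is balanced, and 0 members passed. Over all genes the block took the calls from 1 to 0 in SN at 10 days, from 2 to 4 in VTA at 2 days and from 2 to 0 in VTA at 10 days. At an unadjusted p under 0.05 the block called 2 members in SN at 2 days and 1 in SN at 10 days, against 0 in both. In the difference of responses at 10 days it called 1 against 0, and it changed no other member count. The share of all genes with the block was not counted at this unadjusted threshold. Over all groups, same-numbered arrays deviated together only in part (correlations from -0.26 to 0.40, 19 of 45 pairs over 0.1), and 16 of 18 arrays correlated best with an array of their own number. Over all genes in SN at 2 days, array weights called 20 and quantile normalisation 6, against 0.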
